A study of Caenorhabditis elegans with 6 samples.

Results

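The genes described here encode collagens of the nematode cuticle that set body shape or build the struts of the adult cuticle. They were chosen by name as dpy-5, dpy-13, dpy-17, rol-6, rol-8, sqt-1, sqt-2, sqt-3, bli-1 and bli-2, and 9 of these 10 had a row among the 18811 genes of both deposited tables. The gene dpy-5 was not analysed here. Sequencing of RNA from whole adult Caenorhabditis elegans gave 6 libraries, taken from worms on 2 bacterial diets. In the purE group (3 libraries) worms were fed Escherichia coli of the mutant strain named purE, after a bacterial gene for an enzyme of purine synthesis. In the BW25113 group (3 libraries) they were fed Escherichia coli BW25113, a common laboratory strain. All worms were grown at 20 °C and placed on their diet at larval stage 4, and RNA was taken from synchronized adults. The labels give neither the worm genotype, nor the age of the adults, nor the nature of the purE mutation, and they do not say whether replicates were separate cultures. The p-values therefore measure only the spread between these samples, which may be technical.

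The cuticle is a collagen-rich layer secreted by the hypodermis, the epidermal tissue under it. It is replaced at every larval moult, and transcripts of its collagens rise and fall with each moult. Collagen chains carry Gly-X-Y repeats, assemble into trimers, and are hydroxylated, cleaved and cross-linked on their way into the cuticle. A mutation in a single chain can make a worm short and stout (dumpy, dpy), make it roll about its long axis (roller, rol), alter its shape in several ways (squat, sqt), or raise fluid-filled blisters where the adult layers come apart (blister, bli).

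The members lie on 4 chromosomes of the WBcel235 assembly, 6 of them on chromosome II. Their coding lengths were between 894 bases for sqt-2 and 1056 bases for dpy-17, apart from the 2844 bases of bli-1. The body-shape genes dpy-13 (chromosome IV, 4235614 to 4236710, forward strand) and dpy-17 (chromosome III, 5107330 to 5108492, forward strand) have 3 and 2 exons. The essential collagen gene sqt-3 (chromosome V, 12352745 to 12354320, forward strand) has 3 exons and overlaps a non-coding RNA gene on the other strand by 144 exonic bases. The strut collagen gene bli-1 (chromosome II, 10708960 to 10712156, forward strand) shares 7 exonic bases with dph-2 on the other strand. Its partner bli-2 (chromosome II, 5651394 to 5652434, reverse strand) overlaps zyg-1 but shares 0 exonic bases with it. Whether strand was used in the counting is not given in the sources used here, and reads of such overlaps cannot be assigned. Counts were whole numbers in all 6 libraries for 7 members. The values of dpy-13 and sqt-3 had decimals, and how these arose is not given in the sources used here.

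Total estimated counts per library ranged from 21880627 to 22607939, so the floor that a count of 0 allows, taken as 3 counts, was 0.133 to 0.137 CPM (the estimated count scaled to library size) by counting error alone. All 9 members exceeded 3 counts in every library. The libraries of a diet were not alike. Together the members made up 0.0200%, 0.715% and 0.176% of counts in purE replicates 1, 2 and 3, against 0.158%, 0.0794% and 0.0405% in BW25113 replicates 1, 2 and 3. The purE library with the lowest share thus lay below all BW25113 libraries, and the purE library with the highest share lay above them. Most of the share in each BW25113 library came from sqt-3 and dpy-17. Only these 2 members lay below the BW25113 range in purE replicate 1, and the other 7 lay inside it. Markers of other tissues differed between the same libraries. The 11 sperm markers with a row summed to 827, 4661 and 2334 CPM in purE replicates 1, 2 and 3, against 392, 314 and 652 CPM in the BW25113 replicates, with no marker at 0. The 13 oocyte and early embryo markers summed to 12843, 5836 and 9782 CPM on purE, against 13126, 15825 and 14478 CPM on BW25113, again with no marker at 0. The 10 hypodermis and seam markers, from the tissue that makes these collagens, summed to 3062, 3065 and 4775 CPM on purE, against 3605, 3628 and 5058 CPM on BW25113. Most of that sum was col-19, an adult cuticle collagen, and bus-8 was listed at 0 in purE replicates 1 and 3 and BW25113 replicate 3. The part of these tissues in the results below was not tested. In whole-worm RNA, fewer cells of a type and less RNA per cell cannot be told apart.

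Across the diets the members fell into 3 patterns. The genes rol-6, rol-8, sqt-1, sqt-2, bli-1, bli-2 and dpy-13 stood far above every BW25113 library in purE replicates 2 and 3 but inside the BW25113 range in purE replicate 1. The gene dpy-17 was lower in all 3 purE libraries than in any BW25113 library. The gene sqt-3 spanned a wide range on both diets, with groups that overlapped. No member was called over the whole table: edgeR's quasi-likelihood test with Benjamini-Hochberg adjustment over 12144 genes called 0 of 9 members, and 0% of all genes. At an unadjusted p under 0.05, 7 members were higher on purE, where 12.7% of all genes tested were, and 1 was lower, where 3.81% of all genes tested were. DESeq2 called the same counts, 7 higher and 1 lower, against 6.26% and 1.53% of all genes tested, and limma-voom called 0 members. Without purE replicate 1 edgeR called 7 members higher and 1 lower, against 11% and 3.48% of the genes then tested, and DESeq2 called the same numbers, against 13% and 7.1%. The log2 fold change was above 0 for 8 members, as for 51.6% of all genes tested, and above 4 for 7 of them, as for 0.733%. The smallest edgeR adjusted p of any gene over all 6 libraries was 0.129, and genes of unlike unadjusted p shared it. For instance dpy-17 and rol-6 both had 0.129, at unadjusted edgeR p-values of 0.000683 and 0.00473. All the values that follow are purE over BW25113, and a log2 fold change is given with its standard error (SE).

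**Figure D1:**
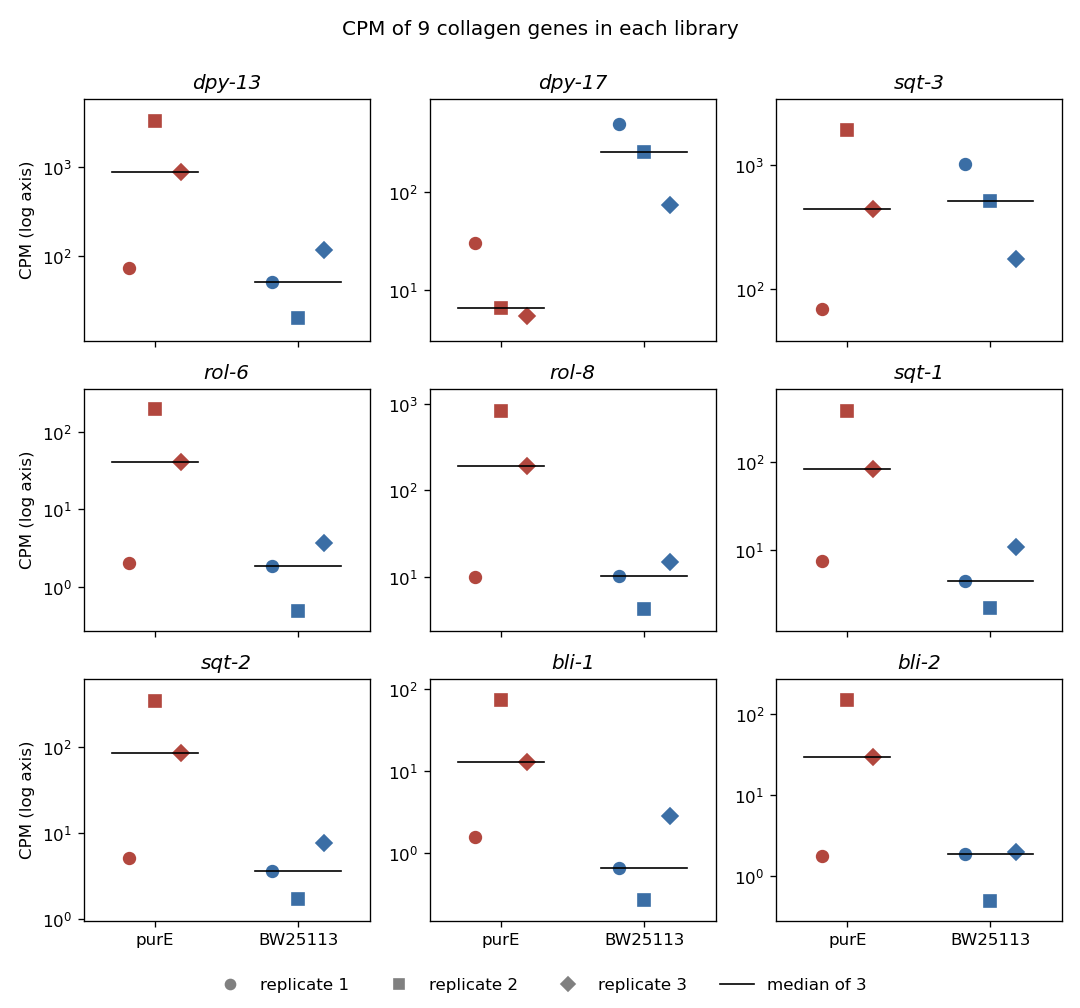
CPM of the 9 genes in each library on a log axis with its own range per panel, purE left and BW25113 right, with marker shapes for replicates and a line at the median of 3. In 7 panels purE replicates 2 and 3 lie above all BW25113 libraries and purE replicate 1 lies among them, and dpy-17 is the 1 gene whose groups do not overlap.

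Of the roller and squat collagens, all but sqt-3 followed the first pattern. ROL-6 is the collagen whose dominant right-roller mutation is widely used as a marker of transgenic worms. Its gene rol-6 (chromosome II, 8733050 to 8734239, forward strand) had 2.03, 197 and 41.1 CPM in purE replicates 1, 2 and 3, against 1.88, 0.493 and 3.73 CPM in BW25113 replicates 1, 2 and 3. The high purE libraries exceeded the highest BW25113 library 52.7-fold and 11-fold, whereas purE replicate 1 lay between BW25113 libraries. The fitted log2 fold change was 5.62 ± 1.48 (SE), at an adjusted p of 0.129 by edgeR and 0.00738 by DESeq2.

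SQT-1 acts together with ROL-6, since loss of sqt-1 function suppresses rolling caused by rol-6. The gene sqt-1 (chromosome II, 11336693 to 11337837, reverse strand) had 7.34, 372 and 81.6 CPM on purE, against 4.42, 2.15 and 10.6 CPM on BW25113. Again purE replicates 2 and 3 were the high libraries, and purE replicate 1 was lower than BW25113 replicate 3. Its log2 fold change was 5.07 ± 1.30, at an adjusted p of 0.129 by edgeR and 0.00784 by DESeq2.

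The other squat collagen gene of this pattern, sqt-2 (chromosome II, 23325 to 24458, forward strand), had 5.13, 339 and 84.2 CPM on purE, against 3.66, 1.70 and 7.56 CPM on BW25113. The roller gene rol-8 (chromosome II, 7544108 to 7545335, forward strand) had 9.95, 829 and 191 CPM on purE, against 10.1, 4.25 and 14.9 CPM on BW25113. For rol-8 purE replicate 1 and BW25113 replicate 1 differed by less than the spread within either diet. The log2 fold changes were 5.37 ± 1.35 for sqt-2 and 5.45 ± 1.38 for rol-8, each with an adjusted p of 0.129 in edgeR. In DESeq2 the adjusted p was 0.00504 for sqt-2 and 0.00500 for rol-8.

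BLI-1 and BLI-2 are collagens of the struts, the columns that join the cortical and basal layers of the adult cuticle across a fluid-filled space. The gene bli-2 had 1.77, 149 and 29.0 CPM on purE, against 1.83, 0.493 and 1.96 CPM on BW25113. Here purE replicate 1 lay below BW25113 replicates 1 and 3, while purE replicate 2 stood 76.3-fold above the highest BW25113 library, the widest such gap among the 9 members. The log2 fold change of bli-2 was 5.68 ± 1.43, at an adjusted p of 0.129 by edgeR and 0.00432 by DESeq2. The gene bli-1 had 1.59, 72.7 and 12.7 CPM on purE, against 0.670, 0.269 and 2.80 CPM on BW25113. These BW25113 values rest on 15, 6 and 63 counts, and the 6 counts are the smallest value of any member. For bli-1 the log2 fold change was 4.87 ± 1.38, at an adjusted p of 0.135 by edgeR and 0.0227 by DESeq2.

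The gene dpy-13, whose mutants are short and stout, was the most abundant member per length (FPKM) in each purE library. It had 72.2, 3289 and 876 CPM on purE, against 50.6, 19.8 and 116 CPM on BW25113. It followed the pattern of the roller and strut genes, with purE replicate 1 inside the BW25113 range. Its log2 fold change was 4.84 ± 1.28, at an adjusted p of 0.130 by edgeR and 0.0109 by DESeq2. For the 7 genes of this pattern the size depended on purE replicate 2: without it the log2 fold changes were between 2.84 for bli-1 and 3.74 for rol-6. Without BW25113 replicate 3 they were larger, and reached 6.02 for bli-1 and 6.17 for rol-6.

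DPY-17 works with SQT-3, the product of sqt-3, and is needed for the secretion of SQT-3 from hypodermal cells. The gene dpy-17 had 30.3, 6.58 and 5.46 CPM on purE, against 493, 253 and 72.7 CPM on BW25113. All purE libraries lay below all BW25113 libraries, as they did for 6.23% of the genes tested, and purE replicate 1 was the nearest to the BW25113 group. The log2 fold change was -4.37 ± 0.84, with an adjusted p of 0.129 in edgeR, an unadjusted p of 0.000683, and an adjusted p of 5.58e-07 in DESeq2. It was -3.64 without BW25113 replicate 1, and -5.38 without purE replicate 1 with an edgeR adjusted p of 0.00428. Over all genes tested, 0.0741% had a log2 fold change below -4.

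SQT-3 is a body-shape collagen that worms need for survival, and the metalloprotease DPY-31 cleaves it. The gene sqt-3 had 69.6, 1898 and 441 CPM on purE, against 1011, 512 and 175 CPM on BW25113. The lowest and the highest of the 6 values were both on purE, in replicates 1 and 2. The log2 fold change was 0.71 ± 1.07, at an adjusted p of 0.726 by edgeR and 0.819 by DESeq2, and it was -0.95 without purE replicate 2. The sign thus rested on that library, and it was also negative in limma-voom and in the fits on FPKM.

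**Figure D2:**
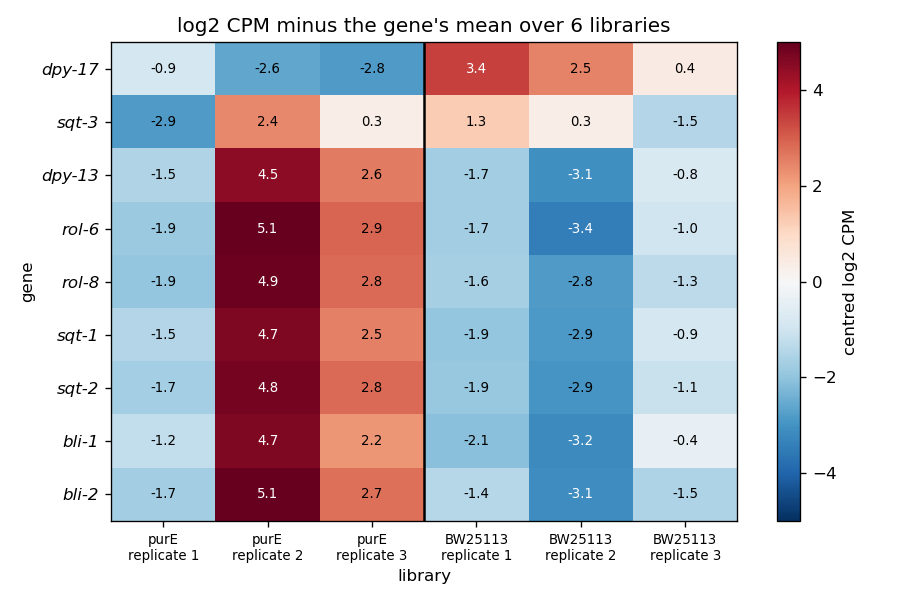
Centred log2 CPM (each gene's log2 CPM, TMM-scaled with a prior count of 2, minus its mean over 6 libraries) for genes in rows and libraries in columns, purE left of the line and BW25113 right. The lower 7 rows are positive only in purE replicates 2 and 3, dpy-17 is positive only on BW25113, and sqt-3 is positive in libraries of both diets.

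In purE replicate 1 the pattern split by gene. There 7 members lay inside the BW25113 range and 2, dpy-17 and sqt-3, lay below it. In purE replicate 2, 8 members exceeded the highest BW25113 library, by 1.88-fold for sqt-3 and by 25.9-fold for bli-1 up to 76.3-fold for bli-2 among the other 7. In purE replicate 3, 7 members did, by 4.54-fold for bli-1 up to 14.8-fold for bli-2, and sqt-3 stood at 0.437 of the highest BW25113 library. How many of all genes tested lay inside, below or above the BW25113 range in a single purE library was not counted. These counts of members therefore only describe the libraries. Within the purE diet the highest library exceeded the lowest 5.55-fold for dpy-17 and 96.7-fold for rol-6, the extremes of the 9 members. Within BW25113 the same ratio ran from 3.50-fold for rol-8 to 10.4-fold for bli-1.

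Variation among the BW25113 libraries also separated the members. The genes dpy-17 and sqt-3 were highest in BW25113 replicate 1 and lowest in BW25113 replicate 3. The other 7 were highest in BW25113 replicate 3 and lowest in BW25113 replicate 2. These are single libraries, so the split is a description with no test.

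**Figure D3:**
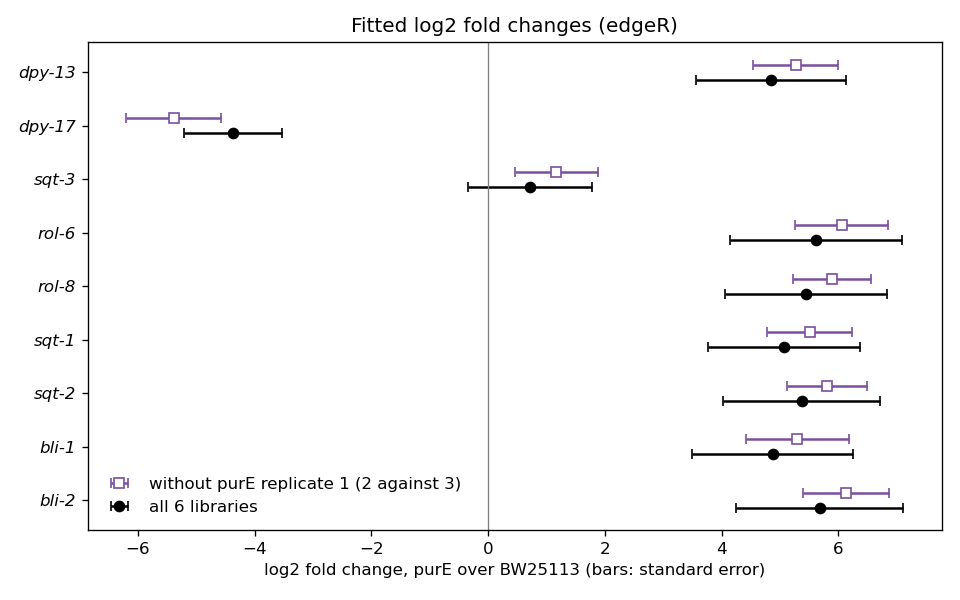
Fitted log2 fold changes of purE over BW25113 from edgeR with bars of 1 standard error, for all 6 libraries (circles) and without purE replicate 1 (squares). In both fits 7 genes lie between 4 and 7, dpy-17 lies below -4 and sqt-3 lies nearest to 0.

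Ratios within a library, which do not depend on its depth, showed which members kept step. The deposited FPKM values, which are scaled to gene length, allow levels to be compared between genes. The FPKM of dpy-17 was 0.559, 0.00446 and 0.0159 of that of sqt-3 in purE replicates 1, 2 and 3, against 0.627, 0.635 and 0.535 in the BW25113 replicates. In purE replicate 1 both genes were low and their ratio lay in the BW25113 range, whereas in purE replicates 2 and 3 sqt-3 was within or above the BW25113 range and dpy-17 was not.

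The FPKM ratio of sqt-1 to sqt-2 was 1.44, 1.10 and 0.973 on purE, against 1.21, 1.27 and 1.41 on BW25113. That ratio moved by less than 1.5-fold between libraries in which the level of each gene moved by over 100-fold. The FPKM ratio of rol-8 to sqt-2 was 1.76, 2.22 and 2.05 on purE, against 2.50, 2.27 and 1.79 on BW25113, a narrow range that overlapped between the diets. The ratio of rol-6 to dpy-17, which stand for the opposite patterns, was 0.0690, 30.7 and 7.72 on purE, against 0.00389, 0.00198 and 0.0527 on BW25113.

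**Figure D4:**
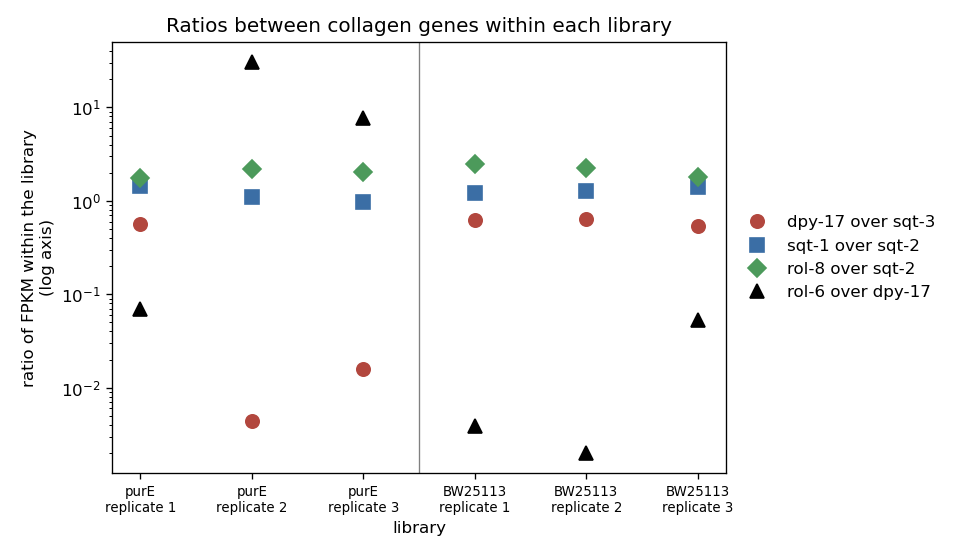
Ratio of FPKM between pairs of genes in each library on a log axis, purE left of the line and BW25113 right. The ratios of sqt-1 and rol-8 to sqt-2 stay between 0.973 and 2.50, while dpy-17 over sqt-3 is near 0.6 in 4 libraries and 0.00446 and 0.0159 in purE replicates 2 and 3.

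The order of levels on the FPKM scale differed between the diets. On purE the order of the means was dpy-13 at 1503 ± 1781 FPKM (SD, n = 3), sqt-3 at 586 ± 705, rol-8 at 317 ± 398, sqt-1 at 157 ± 197, sqt-2 at 145 ± 178, rol-6 at 76.9 ± 99.1, bli-2 at 62.5 ± 81.8, dpy-17 at 13.2 ± 13.1 and bli-1 at 9.77 ± 12.9 FPKM. No neighbours in this order differed by more than the larger of their SDs. Still, the order within a library was stable for the leading genes, since dpy-13 exceeded sqt-3 and sqt-3 exceeded rol-8 in all 3 purE libraries.

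On BW25113 the order of the means was sqt-3 at 413 ± 307 FPKM (SD, n = 3), dpy-17 at 256 ± 198, dpy-13 at 66.2 ± 52.4, rol-8 at 9.01 ± 4.92, sqt-1 at 5.87 ± 4.50, sqt-2 at 4.39 ± 3.04, rol-6 at 1.95 ± 1.57, bli-2 at 1.49 ± 0.848 and bli-1 at 0.420 ± 0.456 FPKM. The gaps between dpy-13 and rol-8 and between bli-2 and bli-1 were larger than either gene's SD, and the other neighbours were closer than that. By FPKM dpy-13 ranked 1249, 85 and 217 among the 18811 genes in purE replicates 1, 2 and 3, against 1474, 2867 and 765 in the BW25113 replicates. The rank of dpy-17 was 2734, 5763 and 6056 on purE, against 323, 474 and 1257 on BW25113.

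Genes with the most similar pattern were sought by the root mean square difference of centred log2 CPM over the 6 libraries, where 0 means the same shape. Among the members the nearest pair was dpy-13 and sqt-1 at 0.138, and the farthest was dpy-17 and rol-6 at 5.12. Outside the members dpy-13 was nearest to rol-1 at 0.103, sqt-1 to the collagen gene col-73 at 0.0791, and sqt-2 to dpy-4 at 0.141. Both rol-8 and bli-2 were nearest to col-63, at 0.190 and 0.240. The nearest gene was col-49 for bli-1 at 0.217 and col-175 for rol-6 at 0.298. The closest to sqt-3 was wrt-2, a hedgehog-related gene, at 0.159, and the closest to dpy-17 were hil-7, a linker histone gene, at 0.397 and dpy-14 at 0.430. These genes were chosen for their likeness, so it was not tested.

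Other collagens of body shape held genes of both directions. The list held dpy-4, dpy-14, lon-3, bli-6, rol-1 and ram-2. At an unadjusted p under 0.05 in edgeR 5 of 6 were higher and 1 was lower (all genes tested: 12.7% and 3.81%). After adjustment 0 were called, while DESeq2 called 5 higher and 1 lower (all genes tested: 6.26% and 1.53%). Without purE replicate 1 edgeR also called 5 higher and 1 lower (genes then tested: 11% and 3.48%). The median log2 fold change of the list was 4.47, beside 5.07 for the 9 members tested and 0.03 for all genes tested. LON-3 is a collagen whose loss makes worms long. Its gene lon-3 had 1.06, 122 and 26.8 CPM on purE, against 0.849, 0.582 and 1.24 CPM on BW25113, with a log2 fold change of 6.09 ± 1.46 at an adjusted p of 0.129. The gene dpy-14 went the other way like dpy-17, with 8.76, 1.14 and 0.632 CPM on purE, against 87.0, 56.4 and 21.7 CPM on BW25113. All its purE libraries lay below all BW25113 libraries, as for 6.23% of the genes tested. Its log2 fold change was -4.10 ± 0.91, with an adjusted p of 0.129 in edgeR. The roller gene rol-1 had a log2 fold change of 4.93 ± 1.28.

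Furrow collagens shape the circumferential furrows of the cuticle, and their loss also makes worms dumpy. At an unadjusted p under 0.05 in edgeR 2 of 6, dpy-8 and dpy-9, were higher and 0 were lower. The shares over all genes tested were 12.7% and 3.81%. The median log2 fold change of the list was 0.52, and DESeq2 called 2 higher (6.26% of all genes tested) where edgeR called 0. Leaving out purE replicate 1 gave 2 edgeR calls, both higher (11% of the genes then tested). The log2 fold change was 4.80 ± 1.29 for dpy-8 and 4.07 ± 1.06 for dpy-9. The gene dpy-9 had 2.83, 73.6 and 16.3 CPM on purE, against 2.14, 1.97 and 2.49 CPM on BW25113, and its lowest purE library exceeded its highest BW25113 library, as for 11.8% of the genes tested. By contrast dpy-10, a furrow collagen gene often used as a marker in genome editing, had 5.97, 16.4 and 4.02 CPM on purE, against 27.9, 16.2 and 8.71 CPM on BW25113. The log2 fold change of dpy-10 was -0.86 ± 0.64, with an adjusted p of 0.511. The furrow genes dpy-2, dpy-3 and dpy-7 were, like sqt-3, lowest in purE replicate 1 and highest in purE replicate 2. For dpy-7 the values were 2.74, 60.1 and 9.79 CPM on purE, against 33.0, 18.1 and 5.29 CPM on BW25113.

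Genes for the modification, cleavage and cross-linking of collagens had log2 fold changes between -0.42 and 1.38 where tested. The listed gene bli-5 did not pass the count filter of that fit. It had 0.310, 5.99 and 1.04 CPM on purE, against 0.313, 0.179 and 0.267 CPM on BW25113. Of 14 tested, 13 lay above 0 on the log2 scale, their median log2 fold change was 0.64, and at an unadjusted p under 0.05 in edgeR 2 were higher and 0 were lower, beside 12.7% and 3.81% of all genes tested, with 0 called after adjustment and 0 by DESeq2. Without purE replicate 1 edgeR called 2 of 15 higher, against 11% of the genes then tested. Of the 15, dpy-18 was called at an adjusted p of 0.0322. The other call was bli-5, with 131 and 23 counts in purE replicates 2 and 3, against 7, 4 and 6 on BW25113. It passed the filter of that fit only through the group where it was high, so its call carries no weight. With all 6 libraries fitted, the genes at an unadjusted p under 0.05 were mlt-7, which encodes a peroxidase of the cuticle, at 1.12 ± 0.43 and phy-2, which encodes a prolyl 4-hydroxylase subunit, at 1.13 ± 0.47. Their adjusted p-values were 0.234 and 0.275. Next by p was doxa-1, the maturation factor gene of the dual oxidase, at 1.02 ± 0.46. The partner hydroxylase gene dpy-18 had 27.5, 164 and 46.9 CPM on purE, against 38.1, 31.3 and 37.5 CPM on BW25113, so that purE replicate 2 alone was far above the rest. The protease genes dpy-31, which acts on SQT-3, and bli-4, a procollagen convertase, had log2 fold changes of 0.41 ± 0.33 and 0.21 ± 0.28, with adjusted p-values of 0.538 and 0.690. The dual oxidase gene bli-3, which drives tyrosine cross-linking, had 0.72 ± 0.36 and an adjusted p of 0.376.

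The list of the DBL-1 pathway, a TGF-beta signal that sets body size and acts on cuticle collagen genes, also held sma-1. The median log2 fold change of the list was 0.20 over 13 genes tested. At an unadjusted p under 0.05 in edgeR 1 was higher and 1 was lower, against 12.7% and 3.81% of all genes tested. After adjustment 0 were called, and DESeq2 called 1 lower, against 1.53%. The lower gene was sma-1 in both. Without purE replicate 1 edgeR called 0 of the 13, against 11% higher and 3.48% lower of the genes then tested. The ligand gene dbl-1 had 5.88, 7.45 and 4.56 CPM on purE, against 3.66, 2.78 and 4.09 CPM on BW25113. All its purE libraries lay above all BW25113 libraries, as for 11.8% of the genes tested. Its log2 fold change was 0.91 ± 0.36 at an adjusted p of 0.255. The body-size gene sma-1, listed with them, encodes a spectrin of the cytoskeleton and had -0.87 ± 0.26 and an adjusted p of 0.142. The third by p was sma-9, at -0.52 ± 0.28.

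Moulting genes, which act at the shedding and renewal of the cuticle, had a median log2 fold change of 0.59 over 18 tested. At an unadjusted p under 0.05 in edgeR 2 were higher and 1 was lower, against 12.7% and 3.81% of all genes tested. After adjustment 0 were called, and DESeq2 called 1 higher and 1 lower, against 6.26% and 1.53%. Without purE replicate 1 edgeR called 4 of 19 moulting genes higher and 1 lower, against 11% and 3.48% of the genes then tested. The edgeR adjusted p-values were then 0.00978 for qua-1, 0.0129 for mlt-10 and 0.0422 for nhr-25. The higher calls included nas-36, which did not pass the count filter with all 6 libraries. It had 50 and 14 counts in purE replicates 2 and 3, against 7, 6 and 5 on BW25113. It thus passed the filter only through the group where it was high, and its call carries no weight. The hedgehog-related gene qua-1 had 0.885, 27.6 and 6.14 CPM on purE, against 2.90, 1.43 and 2.45 CPM on BW25113, with purE replicate 1 the lowest library, and its log2 fold change was 2.62 ± 1.04. For mlt-10 it was 2.28 ± 0.99. Both had purE replicate 1 below all BW25113 libraries, unlike the roller and strut collagens. The nuclear receptor gene nhr-25 was the lower one, at -1.52 ± 0.38 and an adjusted p of 0.129 by edgeR and 0.00590 by DESeq2. Another receptor gene, nhr-23, a driver of moulting, had -0.04 ± 0.43 and an adjusted p of 0.963, and the adult collagen gene col-19 had 0.02 ± 0.34 and an adjusted p of 0.978.

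**Figure D5:**
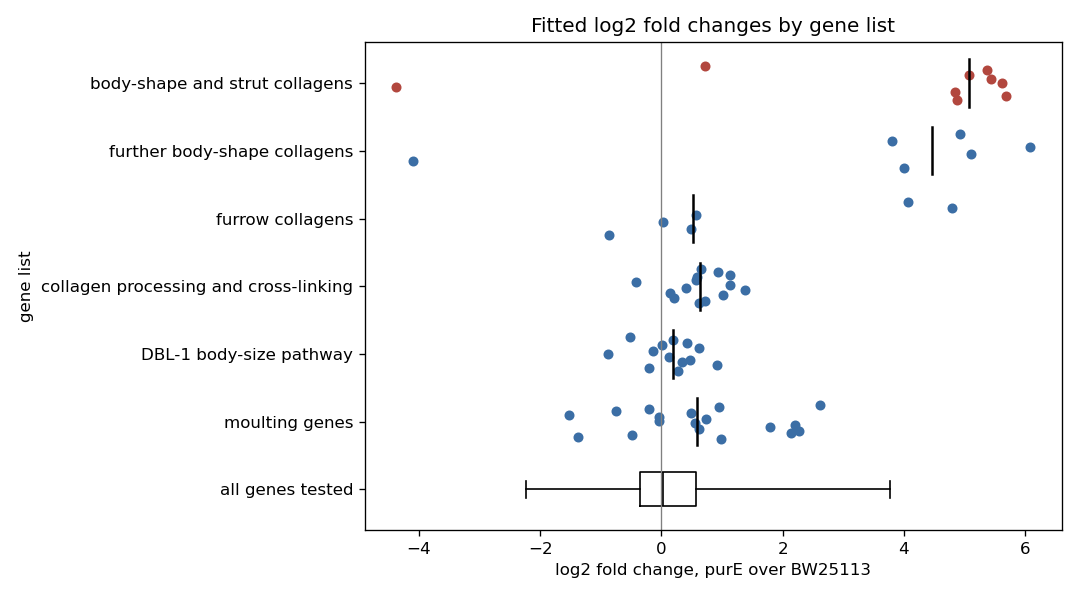
Fitted log2 fold changes of purE over BW25113 for each tested gene of 6 lists (points) with the list median (vertical line), above a box of all genes tested with whiskers at the 1st and 99th percentiles. The collagen lists hold points above 4 and both body-shape lists hold 1 point below -4. The points of the processing and DBL-1 lists stay between -0.87, for sma-1, and 1.38.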

How the data were processed

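Estimated counts per gene and FPKM values were deposited for each of the 6 libraries, per the file headers. The deposited FPKM values take gene length and library size into account. The build is WBcel235, per the submitters' processing notes, and no aligner, counting tool or strand setting is given in the sources used here. Samples were grouped by title. Estimated counts were rounded to whole numbers for testing. Genes passing edgeR's default filter (12144) were fitted with TMM scaling and the quasi-likelihood test (edgeR 4.0.16, R 4.3.3), as a two-sided test. The p-values were adjusted by Benjamini and Hochberg's method over the whole table, and genes under 0.05 were called. Standard errors were derived from the F statistic. CPM values are unrounded counts scaled to the library's total, and groups were compared for overlap on CPM. Alternatives used DESeq2 1.42.0 and limma 3.58.1. Coordinates came from the Ensembl annotation of the same build. No sequences are shown. The procedure was also run on simulated data in which no library was set apart from its group. That simulation does not cover a spread like that among the purE libraries. All members were named, and from each list of cuticle-related genes the 3 genes of smallest p plus dpy-31, bli-4, dpy-18, bli-3, dpy-10, lon-3, dbl-1, nhr-23 and col-19. The listed genes bli-5, nas-36, dpy-2, dpy-3 and dpy-7 were named for their values. Marker lists of tissues are given mainly by sums and counts. Members, lists and tests were chosen with earlier results of these data known.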

Additional observations from a re-analysis of the deposited data

How the results depend on the processing

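Of the 18 alternatives, 8 members kept their direction in each one in which they were tested, and sqt-3 did not. The sign of sqt-3 was reversed in limma-voom (-0.0696), on log2(FPKM + 1) (-0.20), on log2(FPKM + 0.1) (-0.21) and with a library left out, over a range of -0.95 to 1.40. The count of members called was 0 except with DESeq2, at 8, and without purE replicate 1, at 8 in edgeR and 8 in DESeq2. Leaving out single libraries gave 0 to 8 in edgeR. Over all genes tested the count was 0 except with DESeq2 (946), the replicate block (2), DESeq2 without purE replicate 1 (2574) and edgeR with a library left out (0 to 1852). The causes of these differences were not tested. With the replicate number as a block 0 members were called. Same-numbered libraries deviated together with correlations of -0.137, -0.170 and 0.136, and not every library correlated best with its own number, so the numbers were not taken to pair the libraries. At an unadjusted p under 0.05 limma-voom found 3 members, and the gene bli-1 was not tested on FPKM. The FPKM fits moved the median of all genes by -0.14 and -0.16 on the log2 scale. With 3 libraries a diet and purE libraries this far apart, the values describe these libraries, and the lowest counts were 6 for bli-1 and 11 for rol-6 and bli-2, all in BW25113 replicate 2.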

Other observations

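Body wall muscle markers summed to 12054, 14755 and 12276 CPM in purE replicates 1, 2 and 3, against 8524, 9678 and 11641 CPM in the BW25113 replicates. All 8 lay above 0 on the log2 scale (median 0.50), and 1 was higher at an unadjusted p under 0.05 in edgeR. Over all genes tested 12.7% were higher and 3.81% were lower at that threshold, which is the background for each such count below. The 9 intestine markers with a row summed to 63286, 24252 and 45973 CPM on purE, against 56216, 69053 and 81872 CPM on BW25113. Their median log2 fold change was -0.48, with 1 higher at an unadjusted p under 0.05. The library in which 8 of the 9 body-shape and strut collagens were highest, purE replicate 2, had the lowest sum of intestine markers. How many of all genes tested were highest in that library was not counted. Most of the sum came from the yolk protein genes vit-2 to vit-6, and each of these was lowest there. The other intestine markers, ifb-2, elt-2, ges-1 and cpr-1, were not lowest there, and ifb-2 was highest there at 267 CPM. All 10 sperm markers tested were higher at an unadjusted p under 0.05, and their median log2 fold change was 2.79. The log2 fold changes of all 13 oocyte and early embryo markers lay below 0 (median -0.45), and 0 had an unadjusted p under 0.05. The 10 hypodermis and seam markers had a median of 0.03, with 3 lower at an unadjusted p under 0.05. Among these was nhr-25, which is also the lower gene of the moulting list. Single hypodermis and seam markers did not move alike between the purE libraries. The marker wrt-2, also the gene nearest to sqt-3, had 0.752, 17.6 and 3.88 CPM in purE replicates 1, 2 and 3. The marker lin-26 had 86.6, 29.9 and 44.2 CPM in the same libraries. No gene of these lists was called by edgeR after adjustment over all genes tested. DESeq2 called 9 sperm markers higher and 1 hypodermis and seam marker, nhr-25, lower, against 6.26% and 1.53% of all genes tested. Without purE replicate 1 edgeR called 9 sperm markers and 1 intestine marker higher, against 11% of the genes then tested. It called 2 hypodermis and seam markers, nhr-25 among them, and 1 oocyte and early embryo marker lower, against 3.48%.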
